A study of Mus musculus with 4 samples.

Results

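The interferon-inducible GTPases were followed in mouse CD8+ T cells differentiated in vitro and in CD8+ cells of the thymus. The set holds 10 genes in 2 families, the guanylate-binding proteins Gbp1, Gbp2, Gbp3 and Gbp6 and the immunity-related GTPases Igtp, Irgm1, Irgm2, Iigp1, Tgtp and Ifi47. Every non-control probe whose design name was one of these symbols or an earlier one was taken, which gave 13 of 41174 probes. Gbp3 stands on the array as Gbp4, Gbp6 as Mpa2l, Irgm1 as Irgm and Irgm2 as Iigp2, and RefSeq accessions tie those probes to the current genes. Gbp1 is now called Gbp2b.

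The in vitro-derived cells came from Lin-Sca1+CD117+ marrow cells of C57Bl/6 mice aged 6 to 8 weeks, sorted as 100000 cells. They were cultured for 35 days on OP9-DL1, stromal feeder cells that carry the Notch ligand Delta-like 1, with Flt3 (5 ng/ml) and IL7 (1 ng/ml). The thymic cells came from C57Bl/6 mice aged 4 to 5 weeks, had not been cultured and received no treatment. Both kinds were sorted as CD8+ cells with high T cell receptor beta, and no strain carried a transgene or deletion per the labels. The 2 in vitro and 2 thymic RNA preps were combined in all possible pairs on 4 Agilent arrays of 2 colours, with Cy5 on the in vitro RNA and Cy3 on the thymic RNA every time. Effects of dye, donor age and culture thus cannot be told apart. Separate animals are not named in the labels, and the spread behind the p-values may be technical.

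Interferons signal through receptor chains that activate Jak kinases, which in turn activate transcription factors. These act through DNA elements in the promoters of their targets, the gamma-activated site (GAS) and the interferon-stimulated response element (ISRE). The GTPases are among the most strongly induced targets of gamma interferon in mouse cells. Guanylate-binding proteins, relatives of the dynamins, assemble on the vacuoles of intracellular bacteria and parasites. Immunity-related GTPases divide into the regulators Irgm1, Irgm2 and Igtp, which sit on the cell's own membranes, and the effectors Iigp1, Tgtp and Ifi47, which load onto pathogen vacuoles.

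RefSeq promoter windows (GRCm38.p6) were used for 8 of the 10 genes, and none was used for Gbp6 or Iigp1. The 250 bases before each start were searched on both strands for the ISRE core GAAANNGAAA and the GAS core TTCNNNGAA. An ISRE core lay in the windows of 7 of the 8 genes searched and a GAS core in those of 3. Over all 32851 windows of the genome annotation, 2.98% held the ISRE core and 7.02% the GAS core. The windows of Igtp, Irgm2 and Tgtp1 are shown because each holds both cores in the same arrangement, with the GAS core starting 11 bases before the ISRE core. Capitals mark the cores, which do not overlap each other here, and each sequence runs 5′ to 3′ towards the start of its gene. The windows are chr11:58199306-58199555 on the plus strand for Igtp, chr11:58214727-58214976 on the plus strand for Irgm2 and chr11:48992247-48992496 on the minus strand for Tgtp1.
Igtp: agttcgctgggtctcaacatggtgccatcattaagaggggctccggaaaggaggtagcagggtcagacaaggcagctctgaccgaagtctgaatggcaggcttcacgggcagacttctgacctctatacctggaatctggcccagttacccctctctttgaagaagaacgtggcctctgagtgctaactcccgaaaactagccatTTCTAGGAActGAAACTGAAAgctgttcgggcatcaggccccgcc
Irgm2: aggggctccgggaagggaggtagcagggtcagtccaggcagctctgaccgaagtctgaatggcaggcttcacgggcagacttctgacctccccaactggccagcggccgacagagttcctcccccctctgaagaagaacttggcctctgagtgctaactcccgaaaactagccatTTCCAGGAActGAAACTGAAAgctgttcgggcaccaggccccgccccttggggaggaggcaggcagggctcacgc
Tgtp1: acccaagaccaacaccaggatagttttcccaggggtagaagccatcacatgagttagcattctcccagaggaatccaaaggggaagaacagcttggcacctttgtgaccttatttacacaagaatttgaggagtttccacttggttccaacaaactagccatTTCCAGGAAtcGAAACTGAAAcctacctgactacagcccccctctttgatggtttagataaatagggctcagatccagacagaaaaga

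Igtp and Irgm2, which are neighbours on chromosome 11, shared an identical run of 55 bases in these windows. Irgm2 and Tgtp1, which lie in separate clusters, shared a run of 20 bases that ends with the GAS core. The spacing of 11 bases, picked after the windows had been read, was found in 5 of all 32851 windows (0.0152%), those of Igtp, Irgm2, Tgtp1, its near-identical copy Tgtp2 and Gm12185.

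The windows of Gbp2 and Gbp3 are shown because these neighbours on chromosome 3 differed in the direction of their change. They are chr3:142620413-142620662 for Gbp2 and chr3:142559794-142560043 for Gbp3, both on the plus strand, and the Gbp3 window holds a pair of overlapping ISRE cores.
Gbp2: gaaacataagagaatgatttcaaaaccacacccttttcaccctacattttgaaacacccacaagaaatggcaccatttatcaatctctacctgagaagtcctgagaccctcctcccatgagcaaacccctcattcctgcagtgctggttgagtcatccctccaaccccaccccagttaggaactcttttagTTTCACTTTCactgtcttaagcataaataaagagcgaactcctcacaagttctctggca
Gbp3: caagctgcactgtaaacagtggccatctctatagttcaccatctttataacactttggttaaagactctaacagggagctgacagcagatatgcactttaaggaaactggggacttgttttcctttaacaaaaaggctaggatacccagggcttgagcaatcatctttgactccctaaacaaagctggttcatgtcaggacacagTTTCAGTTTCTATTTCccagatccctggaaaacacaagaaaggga

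Neither window held the GAS core. A second start of Gbp3 had neither core in its window, and neither did the start of Ifi47. Irgm1 had overlapping ISRE cores 30 and 24 bases before its start, and Gbp1 (Gbp2b) had 1 core 137 bases before its start. A match describes these letters only, and an absent match says nothing about binding.

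Most of the GTPases were lower in the in vitro-derived cells. Of the 13 probes, 11 passed the filter for signal above background and stand for 9 genes. With limma, 10 of the 11 probes were lower and 1 was higher at a Benjamini-Hochberg adjusted p under 0.05 over all 27236 tested probes, of which 25.6% were called lower. By gene, with the brightest probe standing for each, 8 of 9 were lower and Gbp3 was higher, beside 25.3% of 19158 genes called lower and 52.0% called in either direction. The median difference of the 9 genes, in vitro minus thymic, was -1.37 on the log2 scale, and that of all genes tested was 0.03. In bulk RNA, fewer cells that express a gene and less RNA per cell cannot be told apart.

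**Figure D1:**
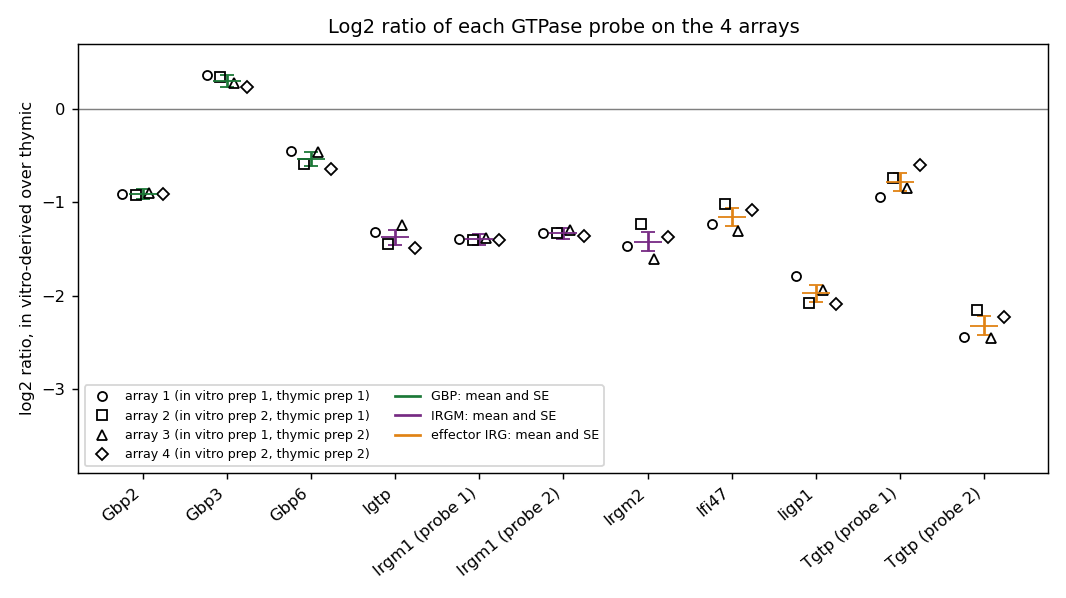
The vertical axis gives the log2 ratio of in vitro-derived over thymic signal for the 11 tested GTPase probes. Open symbols are the 4 arrays, and horizontal marks with bars are the mean and its standard error. On every array 10 probes lie below 0 and the Gbp3 probe lies above it, at 0.24 to 0.36.

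The regulators of the immunity-related family were all lower. Igtp, also known as Irgm3, had log2 levels of 13.77 and 13.61 in the in vitro preps, against 15.05 and 15.08 in the thymic preps. Its mean log2 difference was -1.37 ± 0.08 (SE of the limma fit over 2 preps a kind, adjusted p = 2e-04), a level 2.59-fold lower. The thymic preps lay close together and above both in vitro preps.

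Irgm1, whose loss in mice disturbs the effectors and the survival of lymphocytes, was measured by 2 tested probes. The brighter probe had log2 levels of 11.64 and 11.67 in the in vitro preps, against 13.05 and 13.06 in the thymic preps, and the log2 difference was -1.40 ± 0.06 (adjusted p = 7.3e-05 by limma). The other probe had 11.23 and 11.13 in the in vitro preps, against 12.48 and 12.54 in the thymic preps, a log2 difference of -1.33 ± 0.06. The probes thus gave 2.63-fold and 2.52-fold lower levels. A further Irgm probe, which carries only the cDNA accession of its design, was well above background on 3 arrays in the in vitro channel and on 1 in the thymic channel, and was not tested.

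Irgm2 had log2 levels of 10.01 and 10.23 in the in vitro preps, against 11.48 and 11.60 in the thymic preps. The log2 difference was -1.42 ± 0.10 (adjusted p = 3.5e-04 by limma), and its ratios on the 4 arrays ran between -1.61 and -1.23. The regulators Igtp, Irgm1 and Irgm2 lay within 0.05 of each other on the log2 scale by their brightest probes with loess. With median centring they stood further apart, at -0.38, -0.65 and -0.80.

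The effectors spread more widely. Tgtp, also known as Irgb6, had the largest decrease of the set by its bright probe, with log2 levels of 12.54 and 12.81 in the in vitro preps, against 14.98 and 15.02 in the thymic preps on its bright probe. The log2 difference was -2.32 ± 0.10 (adjusted p = 8e-05 by limma), 5.00-fold lower. Of the 19158 genes 0.731% were lower still. With median centring Iigp1 stood lower (-1.44) than this probe (-1.40), as it did (-1.97) against the mean of both Tgtp probes (-1.55).

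The second Tgtp probe was dim. Its log2 levels were 7.66 and 7.88 in the in vitro preps, against 8.58 and 8.52 in the thymic preps, and its difference was -0.78 ± 0.10 (adjusted p = 0.002 by limma). It had the same direction, but the size differed from that of the bright probe by far more than the standard errors. With Agilent's processed signals the log2 difference was -1.13 for the dim probe and -2.35 for the bright one. Tgtp1 and Tgtp2 are near-identical copies, so which of them these probes measured is uncertain.

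Iigp1, also known as Irga6, had log2 levels of 8.88 and 8.59 in the in vitro preps, against 10.64 and 10.78 in the thymic preps. Its log2 difference was -1.97 ± 0.09 (adjusted p = 9.9e-05 by limma), 3.93-fold lower, and it is the member that lies alone on chromosome 18. Its ratios on arrays 1 to 4 were -1.79, -2.08, -1.94 and -2.09. All lay below those of Ifi47.

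Ifi47, also known as Irgd, had log2 levels of 12.92 and 13.07 in the in vitro preps, against 14.19 and 14.11 in the thymic preps. The log2 difference was -1.16 ± 0.09 (adjusted p = 4.6e-04 by limma), 2.23-fold lower. Among the effectors it changed least by its brightest probe.

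**Figure D2:**
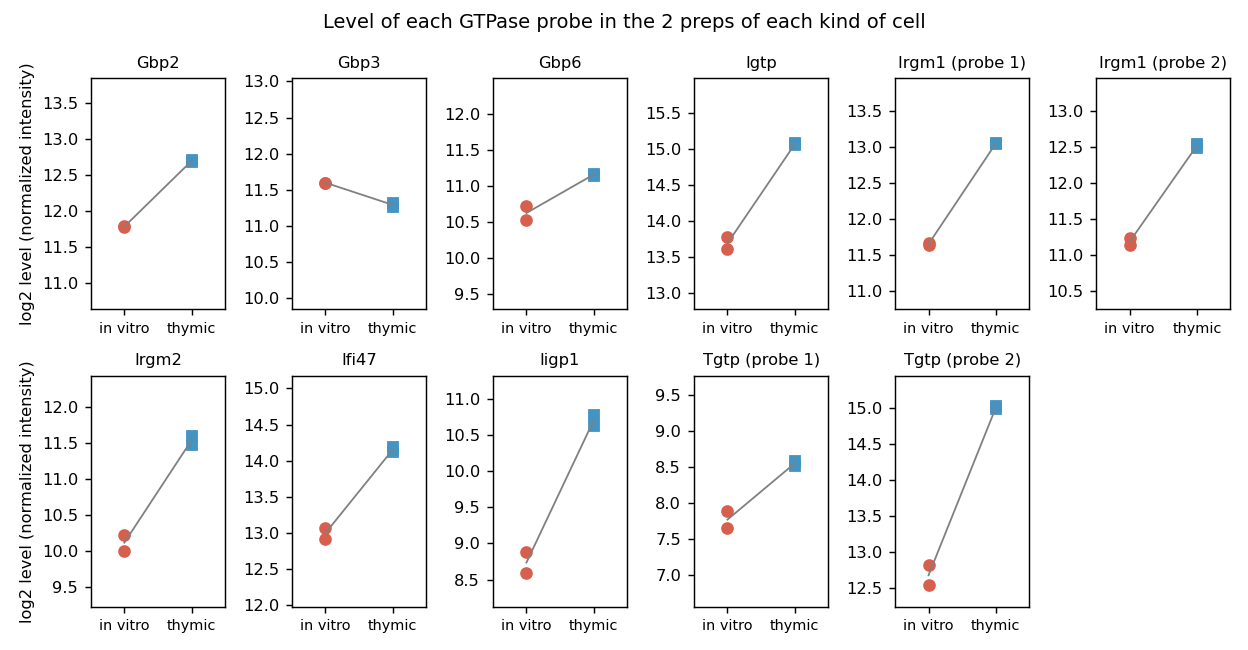
Each panel gives the log2 normalized intensity of 1 tested probe, with the 2 in vitro-derived preps (circles) left of the 2 thymic preps (squares) and a line between the means. Every panel spans the same number of log2 units around its own centre. In each panel both preps of a kind lie on one side of both preps of the other kind.

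By their brightest probes, the tested guanylate-binding proteins of the set were lower by less than its immunity-related GTPases, and 1 was higher. Outside the set this did not hold for the brightest probes of Gbp9 and Gbp5, given below. Gbp2, which is prenylated and needed in mice for control of Toxoplasma, had log2 levels of 11.78 and 11.79 in the in vitro preps, against 12.71 and 12.68 in the thymic preps. Its log2 difference was -0.91 ± 0.06 (adjusted p = 2.3e-04 by limma), 1.88-fold lower. The ratios on the 4 arrays ran between -0.92 and -0.90, so the preps hardly differed.

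Gbp6 had log2 levels of 10.73 and 10.52 in the in vitro preps, against 11.14 and 11.17 in the thymic preps, a log2 difference of -0.53 ± 0.08 (adjusted p = 0.0032 by limma). This is a 1.45-fold lower level, and it turned to 0.09 and lost its call when the arrays were centred on their medians in place of loess. Gbp3 had log2 levels of 11.59 and 11.60 in the in vitro preps, against 11.26 and 11.32 in the thymic preps, a log2 difference of 0.31 ± 0.07 (adjusted p = 0.013 by limma), 1.24-fold higher. The direction held under all 19 alternatives, which were not all independent. The call was lost without either thymic prep, at 0.26 without thymic prep 1 and 0.355 without thymic prep 2. Gbp1 was not well above background in either channel on any array, so no change was given for it.

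The in vitro preps split the members in opposite ways. Igtp, Iigp1 and Gbp6 had higher log ratios with in vitro prep 1, by 0.19, 0.22 and 0.16 on the log2 scale. Irgm2, Ifi47 and both Tgtp probes had higher ratios with in vitro prep 2, with prep 1 minus prep 2 at -0.24, -0.22, -0.26 for the bright Tgtp probe and -0.23 for the dim one. Igtp and Irgm2, the pair with the long shared promoter run, stood on opposite sides. These gaps were above the median absolute gap of 0.10 over all tested probes. The share of probes with a larger gap ran from 13.9% for the bright Tgtp probe to 24.4% for Igtp and 31.4% for Gbp6. Gaps of this size were thus not particular to the members. Gbp2, Gbp3 and Irgm1 differed by at most 0.03 between in vitro preps. Thymic preps differed by at most 0.14 among the tested member probes.

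The other GTPase genes listed as interferon-inducible were mostly lower as well. Of 22 listed genes 15 were on the array and 13 were tested. Of these 10 were lower and 2 higher (8 and 3 with median centring), beside 25.3% and 26.7% of all genes with loess. The median log2 difference was -1.05, beside 0.03 over all genes. Of the lower genes, Gm5431, Gm12250 and 9930111J21Rik2 passed the filter only through the thymic channel, where they were brighter. They were well above background in the in vitro channel on 0, 2 and 3 arrays, so their calls in this direction carry little weight. Mx1 and Mx2, dynamin-like antiviral GTPases that respond to type I interferon, had log2 differences of -3.12 ± 0.07 and -2.66 ± 0.28. By this probe Mx1 lay lower than any of the 9 tested genes of the set, but its second probe stood at -1.59. The difference was -5.02 with Agilent's processed signals and -2.35 as the mean of both probes. Irgq rose by 0.56 ± 0.08 (adjusted p = 0.0034 by limma), although its other probe stood at -0.11. Whether Irgq responds to interferon was not tested here. Gm5431 was not well above background in the in vitro channel and was at least 1.99-fold lower with the main settings (adjusted p = 2.3e-04 by limma), a call lost with the background fitted on all spots (log2 difference -0.88, adjusted p = 0.054). That bound and its channel values are open to dye bias.

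Set by chromosome, the direction of change differed between neighbours. In the chromosome 3 cluster Gbp5 (-1.24 ± 0.07), Gbp7 (-1.05 ± 0.09) and Gbp2 were lower, and Gbp3, which lies between Gbp7 and Gbp2, was higher. In the chromosome 5 cluster Gbp9 (-1.49 ± 0.09), Gbp4 (-0.68 ± 0.09) and Gbp6 were lower, the values of Gbp4 and Gbp6 turning to 0.06 and 0.09 with median centring. Gbp11 was higher at 0.56 ± 0.14 (adjusted p = 0.021 by limma), a call lost without either thymic prep. Gbp8 in the same cluster stood at 0.25 ± 0.13 and did not pass the test. It stood at 0.44 and was called higher without in vitro prep 2, at 0.06 without in vitro prep 1, and at 0.89, called higher, with median centring. A second Gbp9 probe, whose accessions also match Gbp4 and Gbp6, stood at -0.21. Both chromosome 11 clusters, with Irgm1, Tgtp1 and Ifi47 in one and Igtp and Irgm2 in the other, held no tested gene of these lists that was higher. Their other tested genes, Gm5431, 9930111J21Rik2 and Gm12250, passed the filter only through the thymic channel.

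**Figure D3:**
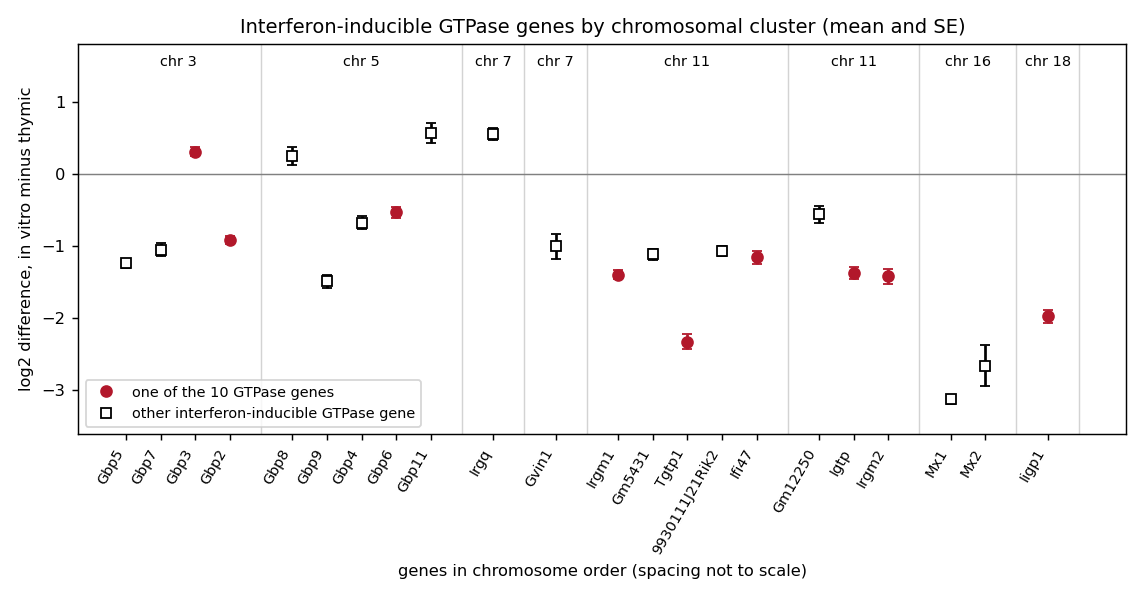
The vertical axis gives the log2 difference, in vitro-derived minus thymic, with its standard error. Shown in chromosome order are 9 member genes (filled circles) and 13 other GTPase genes listed as interferon-inducible (open squares). Gbp3 and Gbp11 lie above 0 beside neighbours that lie below it (Gbp4 and Gbp6 only with loess or Agilent's signals, not with median centring), while the chromosome 11 genes all lie below 0. Gm5431, 9930111J21Rik2 and Gm12250 on chromosome 11 passed the filter only through the thymic channel.

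The receptors and signal carriers upstream did not move as 1 group. Ifngr1, the ligand-binding chain of the gamma interferon receptor, rose by 3.10 ± 0.17 on the log2 scale (adjusted p = 1.6e-04 by limma). Its partner chain Ifngr2 fell by 0.89 ± 0.13, with both of its probes called lower. Of the 9 genes described in the receptor and JAK-STAT list 7 were lower and 1 higher, beside 25.3% and 26.7% of all genes, with a median of -0.79. With median centring 2 were lower and 4 higher. The call of Ifngr2 was lost with median centring.

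Irf9, a DNA-binding factor of the type I response, had the largest decrease of the genes described in this list, at -1.67 ± 0.06 (adjusted p = 5.1e-05 by limma), with both of its probes lower. Jak1 stood at -1.29 ± 0.11, Stat2 at -0.95 ± 0.10 and Tyk2 at -0.79 ± 0.08, all called lower, the calls of Jak1 and Tyk2 being lost with median centring. Ifnar1 (-0.44 ± 0.08) and Jak2 (-0.27 ± 0.09, adjusted p = 0.048 by limma) were lower and turned to higher values of 0.27 and 0.44 with median centring. The call of Ifnar1 was also lost without thymic prep 1. That of Jak2, close to the threshold, was also lost with Agilent's signals, an offset of 16, no filter, the mean over probes, and without either thymic prep, in vitro prep 2 or any single array. Ifnar2 stood at 0.12 ± 0.09 and was not called, but its other probe was called higher at 0.62, and it was called higher as the mean of both (0.37) and with median centring (0.84).

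Among the interferon regulatory factors 5 of 9 tested genes were lower and 1 was higher, beside 25.3% and 26.7% of all genes, and 3 were lower and 2 higher with median centring. Irf7, which carries the type I response, was lower by the most, at -2.51 ± 0.06 on the log2 scale. Irf1, which takes part in inducing the guanylate-binding proteins, stood at -0.34 ± 0.17 and did not pass the test (adjusted p = 0.15 by limma). It was called lower at -0.54 without thymic prep 2 and higher at 0.79 with median centring. Irf8 was higher, at 0.33 ± 0.06 (adjusted p = 0.0071 by limma), a call lost without either thymic prep.

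Of 7 feedback inhibitors 3 were higher and 3 lower, beside 26.7% and 25.3% of all genes, and 5 were higher and 1 lower with median centring. Socs1, which blocks Jak kinases, rose by 0.86 ± 0.18 on the log2 scale (adjusted p = 0.013 by limma), whereas Usp18, which blocks the type I receptor, stood at -2.53 ± 0.10. The interferon genes themselves were near background for the most part. Ifng, which encodes gamma interferon, had a log2 difference of -1.85 ± 0.24 (adjusted p = 0.0022 by limma) with both probes lower, Ifnz was higher at 0.21 ± 0.06 but not called with Agilent's processed signals, and Ifnb1, Ifna2, Ifna4 and Ifnk were not well above background on any array.

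Genes induced by gamma interferon that encode no GTPase had a median nearer to 0. Of 11 tested genes 6 were lower and 2 higher, beside 25.3% and 26.7% of all genes, with a median of -0.28. With median centring 2 were lower and 8 higher, with a median of 0.57. Cxcl10, a chemokine, had the lowest value at -1.32 ± 0.28, and its call was lost when the background model was fitted on all spots. The peptide transporter subunit Tap1 was lower, at -1.06 ± 0.06, while its partner Tap2 was higher, at 0.55 ± 0.13, a call lost without either thymic prep. The immunoproteasome subunit Psmb9 was lower at -0.48 ± 0.08, which turned to 0.58 with median centring, and Psmb8 was higher at 0.35 ± 0.06, a call lost without either thymic prep.

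**Figure D4:**
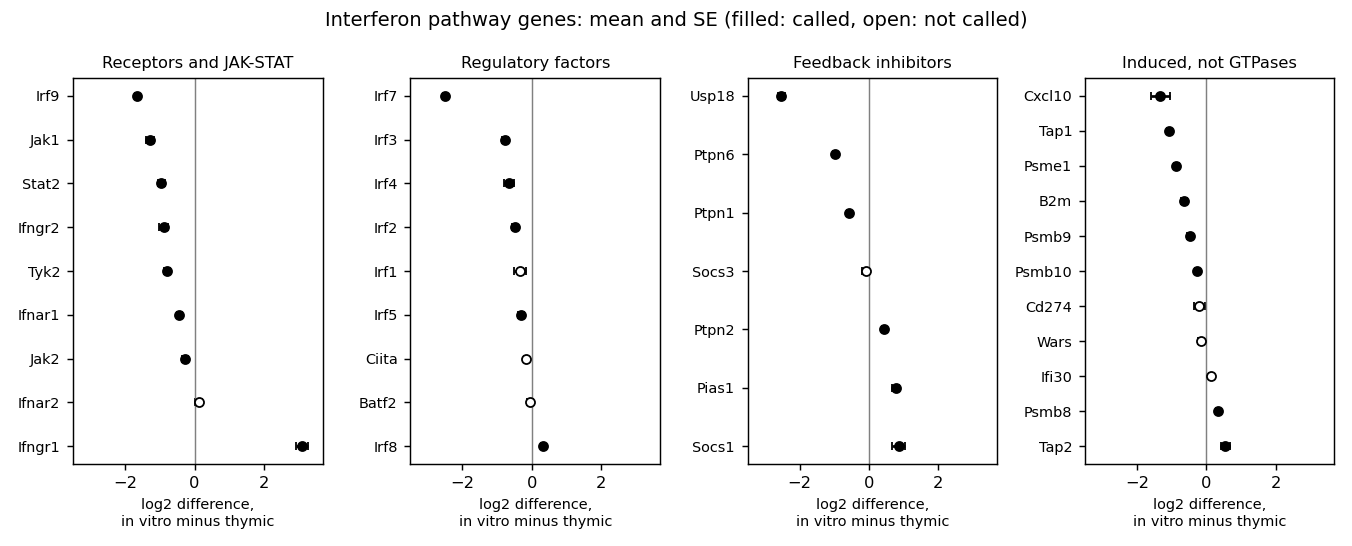
The horizontal axes give the log2 difference, in vitro-derived minus thymic, with its standard error, for the tested genes of 4 lists around the interferon pathway. Filled points passed the test and open points did not. Irf9 and Ifngr1 lie at the opposite ends of the first panel, at -1.67 and 3.10.

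The genes listed around placement and modification of the GTPases showed no common decrease. The autophagy list holds conjugation genes, whose products direct the GTPases to vacuoles, and other autophagy genes such as Becn1, Ulk1, Sqstm1 and Tax1bp1. Of its 15 members 7 were higher and 1 lower, beside 26.7% and 25.3% of all genes, with a median of 0.28. The number higher was 4 with Agilent's signals and 15 with median centring. Gabarapl1 was the highest, at 1.82 ± 0.17, and Becn1 the only one called lower, at -0.30 ± 0.06, a value that turned to 0.42 with median centring. The 6 prenylation genes encode enzymes that attach the lipid anchor of some guanylate-binding proteins or act after its attachment. Of these 1 was higher and 2 lower, beside 26.7% and 25.3% of all genes. Fnta was higher (0.20 ± 0.06, adjusted p = 0.045 by limma, not called with Agilent's processed signals). Rce1 (-0.67 ± 0.06) and Fntb (-0.55 ± 0.06) were lower, and these 2 turned to 0.10 and 0.02, neither called, with median centring. The second Fntb probe stood at -0.10 and was not called. Dynamin and atlastin relatives that are not interferon targets had 4 of 10 members higher and 4 lower, beside 26.7% and 25.3% of all genes (7 and 3 with median centring), with Atl2 at 1.54 ± 0.07 and Ehd1 at -1.47 ± 0.07.

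The size of every difference rests on how the dyes were balanced. Before normalization the median tested probe was 2.36 to 2.76 times brighter in the in vitro channel than in the thymic channel, and 7 of the 11 member probes were brighter there on all 4 arrays. Loess set this aside as a function of intensity, and Agilent's own processed signals gave nearly the same members' median, -1.40. Centring each array on its median moved all genes to a median of 0.39 and the members to -0.38, so that the members' median minus that of all genes was then -0.77. Under it 7 of the 10 lower probes kept their call, and Gbp2 (-0.18, adjusted p = 0.066 by limma) and Ifi47 (-0.27, adjusted p = 0.09) kept their direction without it.

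**Figure D5:**
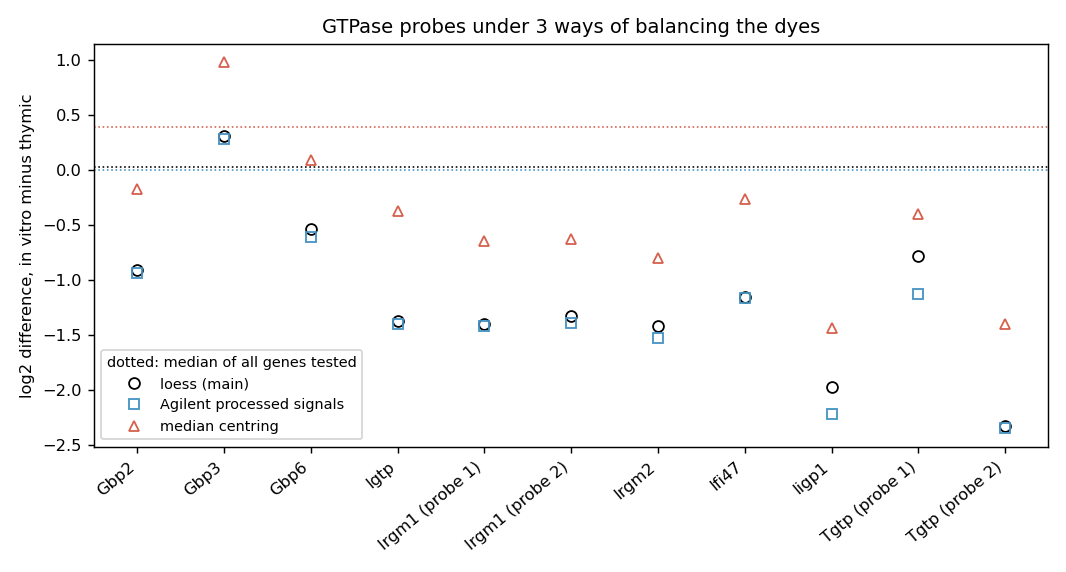
The vertical axis gives the log2 difference, in vitro-derived minus thymic, of the 11 tested probes with loess, with Agilent's processed signals and with median centring, and dotted lines give the median of all genes under each. Median centring lifts the members and the median gene together. In each setting the Gbp3 probe stays above the dotted line of that setting and the other probes stay below it.

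Markers of other cells moved beside these values. For the counts below, 26.7% of all genes were called higher and 25.3% lower. The 7 CD8 T cell markers on the array had signal well above background on every array in both kinds of cells, 5 of them lower and Lck higher. Of 8 tested stromal markers 7 were higher, up to 4.69 for Pdgfrb on the log2 scale. By its brightest probe Acta2 was lower at -0.91. Of its 3 tested probes, however, 1 was called lower and 1 higher, with values from -0.91 to 0.66. Without Acta2, left out after the values had been seen, which alone summed to 11900 to 12600 in vitro and 22300 to 23900 in thymic cells, the summed level of the stromal list was 9790 to 12700 in vitro and 1200 to 1330 in thymic cells. With it the list summed to 22400 to 24900 in vitro and 23600 to 25200 in thymic cells. Macrophages, which express these GTPases strongly after gamma interferon, had 3 of 8 tested markers higher and 3 lower. Their summed levels were 1350 to 1550 in vitro and 1400 to 1590 in thymic cells. Fcgr1, Clec9a, Siglech and Ncr1 were not well above background on any array. The summed natural killer list was 1090 to 1750 in vitro and 905 to 940 in thymic cells, that of dendritic cells 1680 to 1840 and 1440 to 1530, that of B cells 2740 to 3180 and 3460 to 3570, and that of endothelial and epithelial cells 1640 to 1740 and 1490 to 1570. The part of other cells in the GTPase differences was not tested.

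The genes nearest in pattern over the 4 arrays to the mean member, by Euclidean distance of log2 ratios, were AK034021, Tor4a, Pcbp3, AI481105 and H2-Bl, at distances of 0.04 to 0.07. Their mean differences lay between -1.23 and -1.17, and 4 arrays are few for such a ranking.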

How the data were processed

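Per the file headers, the 4 arrays were read with Agilent Feature Extraction, version 9.5.1.1, and lay on 1 slide read in 1 scan. The deposited scanner files hold spot intensities with local backgrounds for each channel, on a linear scale. The deposited series table gives log10 values of the Cy5 to Cy3 ratio, which equalled the scanner's own log ratio within 1e-04 for 99.6% of probes on each array. Its column medians were 0.

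Spots that Feature Extraction marked as non-uniform or outlying (133 to 187 per array) were left out. Background was corrected by normexp (offset 50) and dyes were balanced by loess within each array, with limma 3.58.1 in R 4.3.3. Channel levels were scaled by Aquantile. A probe was tested where 1 channel or both stood well above background on each of the 4 arrays, 27236 of 41174. The 4 log2 ratios of a probe were turned into 4 prep values, since arrays that share a prep are not independent, and fitted with lmFit and eBayes (2 residual and 3.19 prior degrees of freedom). The adjusted p follows Benjamini and Hochberg over all tested probes, with 0.05 as the threshold. An exact permutation of 2 preps against 2 could not go below 0.333. For each gene of a list the probe of highest mean intensity was used. Between 63.7% and 70.9% of spots were well above background per channel and array, and the small number of preps limits the precision.

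Names were updated through RefSeq accessions, which 22951 probes matched. A further 295 probes, those of Gbp11 and Gm12250 among them, were named through the gene number in their design name. The text names all probes of the members, tested genes of the lists, in each list the called genes of largest rise and fall, and the 5 genes nearest in pattern. The members and lists were chosen with earlier results of these data known. Alternatives covered background, dye balance, filters, probe choice, the deposited ratios and each prep or array left out. A comparison of the proteins was not run, and 1 gene of the lists is not reported here. The fit was tested on simulated data.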

Additional observations from a re-analysis of the deposited data

How the results depend on the processing

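Over 19 alternatives the 11 member probes gave 205 values, of which 198 kept direction and side of the threshold, 6 lost the call and 1 turned. These settings were not all independent. Aquantile left every log ratio unchanged, and the deposited ratios repeated Agilent's processed signals. A left-out array was filled from the others, so leaving out array 1 or 4 gave the same difference, as did array 2 or 3. The probe that turned was Gbp6, at 0.093 with median centring, where the other called genes of the text that turned were Ifnar1 (0.271), Jak2 (0.436), Gbp4 (0.064), Becn1 (0.421), Psmb9 (0.582), Fntb (0.018) and Rce1 (0.102). Irf1, not called with loess, turned to 0.787 and was called higher. Median centring also took the calls of Gbp2 and Ifi47, and moved the share of genes called lower to 11.3%, against 25.3% with loess. The count of member probes called lower was then 7, against 10. The other calls lost were those of Gbp3, with marked spots kept (0.27), with the background fitted on all spots (0.27) and without either thymic prep. The cause was not tested.

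The number of genes called, 9961, ranged from 5871 to 9854 when 1 prep or 1 array was left out, with 6249 without thymic prep 1 and 5871 without thymic prep 2, where the lone prep was assumed to vary like the others. It was 13670 with median centring. The 10 lower member probes were called in each of these fits that left out a prep or an array. No paired analysis was possible because prep numbers name the preps of each kind and each prep met both preps of the other kind. Limits of signal over background touch Gbp1, the third Irgm1 probe and the dim Tgtp probe, whose fold an offset pulls towards 0: with an offset of 16 it was -0.90, against -0.78.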
